A study of Mus musculus with 6 samples.

Results

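The Hox genes of the clusters A, B, C and D were followed in whole prostates of 4-week-old mice. The members are defined by name, as every gene whose symbol is Hox, a cluster letter and a number, measured through a probe set with that symbol alone, and no measured value enters this rule. This gave 37 genes of 19938 followed on the array, and 37 of the 39 such genes in the RefSeq table. Hoxb8 was not analysed here as a member. Each member had 1 probe set. The 6 arrays came from 3 mice labelled AR3 transgenic and 3 wild-type littermates, with 1 prostate RNA and 1 array per mouse. AR3 is a splice variant of the androgen receptor. The labels do not give the promoter that drives the transgene, the number of founder lines or the mouse strain, and the transgene itself was not measured here, so the genotypes rest on the labels. Prac1 was not analysed here.

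Hox genes encode homeodomain transcription factors that mark position along the body axis. In mammals they lie in clusters, numbered so that low-numbered genes act towards the head and high-numbered genes towards the tail, and genes of the same number in different clusters are paralogs. Paralog group 13 acts in the hindgut, the genital tract, the distal limb and the tail. Hoxb13 is known as a marker of the prostate epithelium and as a partner of the androgen receptor, and Hoxa13 and Hoxd13 are needed for normal growth of the male accessory glands. The question put to the data was whether these positional genes differ at this age between the genotypes.

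The 2 genotypes had similar Hox intensities, in that all 37 intervals at 95% lay within a change of 1 in log2(intensity + 16). Of all genes 98.5% did. By limma, 0 of the 37 genes passed an adjusted p of 0.05, against 1.47% of all 28944 probe sets other than controls. With so small a share, a count of 0 among 37 does not set the family apart. The smallest adjusted p among the members was 0.35. Unadjusted, 3 of 37 had a p under 0.05 (limma), and 12.3% of all probe sets did. Hoxb13 and Hoxd13 were bright in every mouse, and their 95% intervals for the change reached no further than −0.28 on one side and 0.21 on the other, as changes in log2(intensity + 16). The p-values rest on the spread between mice, since the labels name each sample as a separate mouse. In whole tissue, fewer cells of a type and less RNA per cell cannot be told apart.

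Intensity is the deposited brightness of a probe set on a linear scale. Probe sets bind with different strength, so a level was set against background and never against another gene. Background was taken from 1035 probe sets of olfactory receptor genes, which are largely silent outside the nose. Their 95th percentile lay between 66.9 and 91.9 on the 6 arrays. Median intensity of all tested probe sets lay between 94.5 and 110.8. The prostate markers Pbsn, Sbp, Msmb, Tgm4 and Spink1 were all above this scale on every array, and the 8 luminal markers measured, keratins 8, 18 and 19 and Epcam among them, were as well. Marker genes of the seminal vesicle and of stroma also gave signal. Whether it came from adjoining tissue or from the prostate itself was not tested. The mean log2 level of 8 seminal vesicle genes was 8.34, 6.05 and 6.23 in wild-type mice 1, 2 and 3 and 7.84, 7.06 and 9.04 in transgenic mice 1, 2 and 3. For 11 fibroblast genes it was 8.59, 7.98 and 7.86 and then 8.41, 8.46 and 8.93 in the same order. Single markers of neighbouring glands and ducts also passed the threshold. Ceacam10, a seminal vesicle gene, was at 39.1 to 48.0 in wild-type and 889.9 to 958.7 in transgenic mice (adjusted p 7.4e-07 by limma). Svs3a, of the same seminal vesicle list, was lower, at 341 to 610 and 136 to 203 (adjusted p 0.019 by limma). Adam7, an epididymal gene, was at 14.3 to 19.7 and 150.5 to 165.8 (adjusted p 8.6e-06 by limma). Of 7 vas deferens and epididymis genes, 4 were under background on every array. Wfdc8 was also higher in transgenic mice (adjusted p 0.0038 by limma), while Lcn5 had a change of −0.30 that did not pass the threshold. The part of all these markers in the Hox values was not tested. For the luminal genes the mean log2 level lay between 10.89 and 10.98 in wild-type and between 11.01 and 11.06 in transgenic mice. Of these 8 genes 0 passed the threshold.

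Of the 37 Hox genes, 21 lay above the background percentile of the same array on all 6 arrays, and 9 on 0 arrays. On each array the median of all tested probe sets, 94.5 to 110.8, was also above that percentile. The share of all genes above it on all 6 arrays was not counted, so these counts do not set the family apart. By group mean, 27 lay above the lowest percentile, 66.9, in both genotypes, and 22 above the highest, 91.9. The clusters differed in this count. Above background on all 6 arrays were 8 of 10 genes of cluster A, 6 of 9 of cluster B, 6 of 9 of cluster D and 1 of 9 of cluster C. Hoxc9 was the gene of cluster C. In 7 of the 9 cluster C genes no array lay above its percentile, although 1 of these, Hoxc8, had a wild-type mean of 66.93, next to the lowest percentile. By paralog number, 3 of 11 genes of groups 1 to 4, 7 of 10 of groups 5 to 8, 8 of 12 of groups 9 to 12 and 3 of 4 of group 13 were above on all 6 arrays. All 4 group 9 genes were. Hoxc9, at 99.7 to 124.3, was however under the 99th percentile of the olfactory receptor probe sets (118.3 to 157.3) on every array. By group mean, 17 of the 37 genes lay above the lowest 99th percentile in both genotypes. The plot of intensities by cluster shows this layout.

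**Figure D1:**
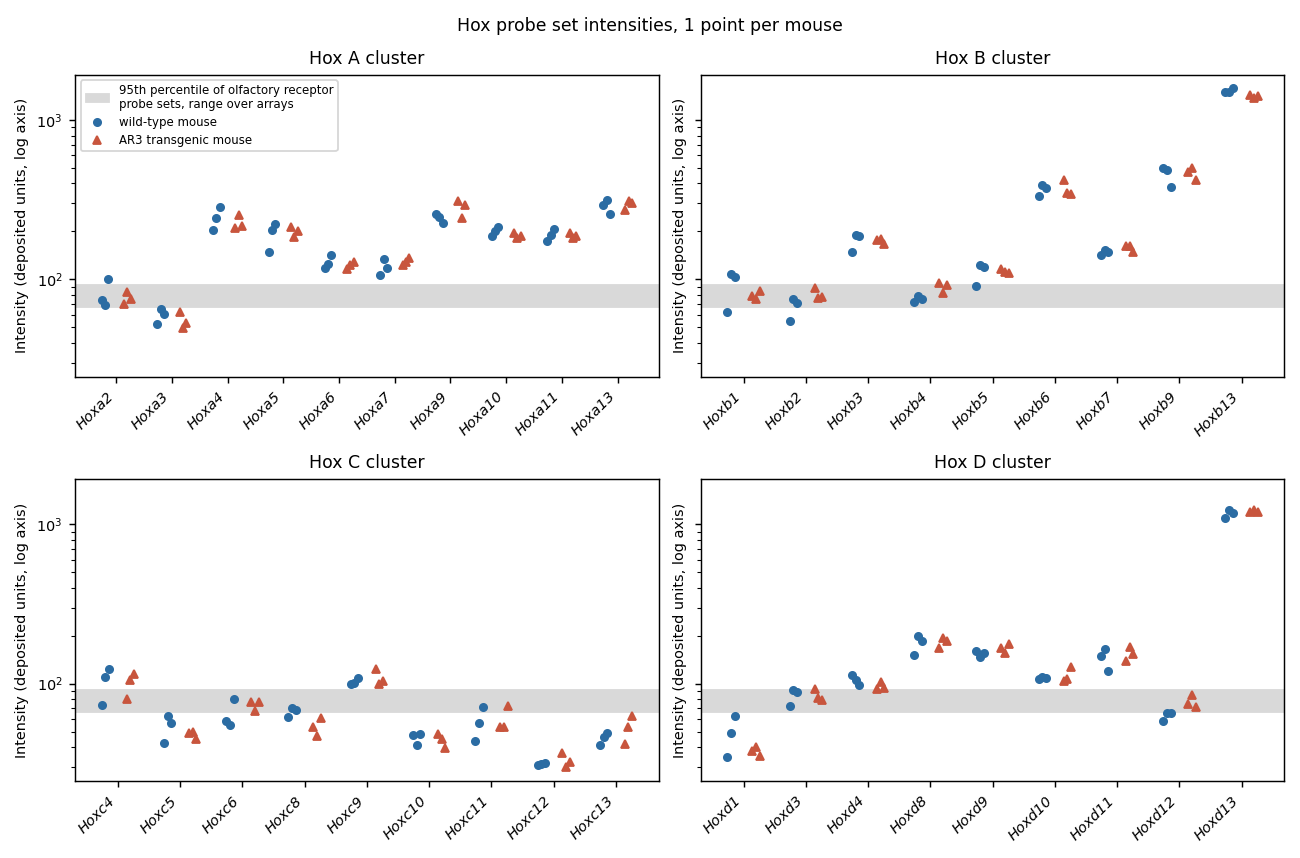
Intensity of each measured Hox gene (log axis, deposited units), 1 panel per cluster and 1 point per mouse, with wild-type as circles and AR3 transgenic as triangles. The grey band is the range of the background percentile over the arrays, 66.9 to 91.9. Hoxb13 and Hoxd13 lie at 1103 or above in all 6 mice, and most of cluster C lies in or under the band.

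In group 13, Hoxa13, Hoxb13 and Hoxd13 were above background on every array. Hoxb13 had intensities of 1499.9, 1503.7 and 1584 in the wild-type mice and 1434, 1386 and 1421 in the transgenic mice. The genotypes did not overlap, with all 3 transgenic mice lower, a separation shown in the lower direction by 8.78% of all probe sets. The means were 1529 ± 47.7 (SD, n = 3) and 1414 ± 24.7 (SD, n = 3). The change was −0.11 ± 0.07 (SE), with a 95% interval from −0.28 to 0.05 and an adjusted p of 0.58 (limma), so the gene did not pass the test. Its change lay between −0.15 and −0.09 over all 16 settings tried, with the adjusted p at or above 0.36.

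Hoxd13 had intensities of 1103, 1238 and 1179 in wild-type and 1192, 1225 and 1189.7 in transgenic mice. The transgenic mice lay inside the wild-type range. The change was 0.04 ± 0.08 (SE), with a 95% interval from −0.14 to 0.21 and an adjusted p of 0.90 (limma). Hoxa13 was at 291.4, 313.8 and 256.8 in wild-type and 272.9, 312.0 and 303.8 in transgenic mice, and again the genotypes overlapped. Its change was 0.04 ± 0.10 (SE), with a 95% interval from −0.18 to 0.27. Hoxc13, known for its part in hair and nail, was between 41.3 and 62.6 in all 6 mice, under the background scale.

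The promoters of Hoxd13 and Hoxa13 are shown because these were group 13 genes above background with an entry in the sequence table used. Each line gives the 250 bases before the start of the gene, read along the gene, from RefSeq on build GRCm38.p6, at chr2:74667975-74668224 on the plus strand for Hoxd13 and chr6:52260881-52261130 on the minus strand for Hoxa13. Capitals mark matches to TATAAA on either strand, where a match and its reverse complement may overlap.
Hoxd13: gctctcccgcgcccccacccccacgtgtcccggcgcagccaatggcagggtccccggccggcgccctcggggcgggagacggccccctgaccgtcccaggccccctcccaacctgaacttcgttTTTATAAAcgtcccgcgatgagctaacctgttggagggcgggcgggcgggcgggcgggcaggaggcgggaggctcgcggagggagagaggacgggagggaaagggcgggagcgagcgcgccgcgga
Hoxa13: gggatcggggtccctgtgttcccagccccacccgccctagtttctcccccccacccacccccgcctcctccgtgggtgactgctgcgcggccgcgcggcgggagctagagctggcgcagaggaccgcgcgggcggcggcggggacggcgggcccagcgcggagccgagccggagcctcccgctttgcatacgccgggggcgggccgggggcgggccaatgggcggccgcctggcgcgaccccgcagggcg
The Hoxd13 window held a TATAAA match, as did 3 of 23 Hox windows and 12.4% of all 32851 windows of that length, while the Hoxa13 window held none of the motifs searched. Both windows were rich in CG pairs, with 31 for Hoxd13 and 35 for Hoxa13. The 23 windows of the 21 Hox genes in the table had a median of 13 CG pairs, from 2 to 35, against a median of 6 over all windows, and a median GC content of 59.2% against 52.4%. The hexamer AGAACA, the core bound by the androgen receptor, matched on either strand in 2 Hox windows, those of Hoxa9 and Hoxa11, and in 16.1% of all windows. Its inverted repeat with 3 bases between matched in 0 Hox windows and in 3 of all windows. CAATAAA, a sequence bound by high-numbered Hox proteins, matched in 0 Hox windows and in 4.20% of all windows. These are matches of letters in a short window, and no binding was measured.

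Groups 9 to 12 held 8 genes above background on all arrays. Hox9 to Hox12 proteins pattern the trunk, kidney, reproductive tract and limb. Hoxa9 was at 257.8, 247.1 and 227.3 in wild-type and 310.8, 241.4 and 291.0 in transgenic mice. Transgenic mouse 2 lay inside the wild-type range and the others above it. The change was 0.19 ± 0.11 (SE), with an adjusted p of 0.54 (limma). Hoxb9 was at 500.9, 488.0 and 382.8 and at 469.1, 499.6 and 423.3 in the same order. Here the transgenic mice lay within the wild-type spread. Hoxc9 was at 100.2, 101.0 and 108.1 in wild-type and 124.3, 99.7 and 104.7 in transgenic mice. Hoxd9 was at 159.6, 146.2 and 155.5 and at 166.8, 155.7 and 177.7. All 4 group 9 genes had a positive change, from 0.03 to 0.19, and all 4 overlapped between genotypes.

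Hoxa10, which is known for its part in the uterus and in the male accessory glands, was at 186.3, 199.8 and 214.7 in wild-type and at 194.6, 181.4 and 186.8 in transgenic mice. Hoxa11 was at 173.2, 190.2 and 208.1 and at 196.9, 182.9 and 187.8. In both genes the genotypes overlapped. Hoxd10 was at 107.5, 109.7 and 109.1 in wild-type mice, with a coefficient of variation of 1.05%, the smallest in that genotype among the 37 genes. In transgenic mice it was at 104.7, 106.6 and 127.1. Hoxd11 was at 149.9, 165.8 and 120.7 and at 139.5, 169.9 and 153.6. The changes of Hoxa10, Hoxa11, Hoxd10 and Hoxd11 were −0.09, −0.01, 0.04 and 0.08. Hoxc10, Hoxc11 and Hoxc12 lay under the background percentile on every array.

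Most members with the smallest p-values lay near background. Hoxd12 was at 58.6, 65.5 and 65.9 in wild-type and 74.8, 84.4 and 71.4 in transgenic mice. All 3 transgenic mice were higher, on 1 array above its own background percentile. The change was 0.23 ± 0.09 (SE), with an unadjusted p of 0.032 and an adjusted p of 0.35 (limma). Hoxc8, a gene of the trunk region, was at 61.8, 70.3 and 68.7 in wild-type and 53.6, 47.2 and 60.8 in transgenic mice. All 3 transgenic mice were lower, and no array lay above its percentile. The change was −0.25 ± 0.10 (SE), with an adjusted p of 0.35 (limma).

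Hoxb4, which is known for its part in blood stem cells, was at 72.2, 78.8 and 75.2 in wild-type and 94.4, 81.6 and 92.6 in transgenic mice. The genotypes did not overlap and the transgenic mice were higher. The change was 0.21 ± 0.08 (SE), with an adjusted p of 0.37 (limma). Hoxb2, a gene of the hindbrain, was at 55.0, 75.2 and 70.9 and at 88.3, 76.8 and 77.3, also without overlap, with a change of 0.23 ± 0.11 (SE, adjusted p 0.47 by limma). Hoxd1 was at 34.6, 48.7 and 62.2 in wild-type and 37.8, 40.2 and 35.0 in transgenic mice, with a change of −0.24 ± 0.15 (SE, adjusted p 0.57 by limma). It varied most among wild-type mice of all members, with a coefficient of variation of 28.4%. In all, the genotypes did not overlap in 5 of 37 Hox genes, namely Hoxb2, Hoxb4 and Hoxd12 higher and Hoxb13 and Hoxc8 lower in transgenic mice, against 18.8% of all probe sets.

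**Figure D2:**
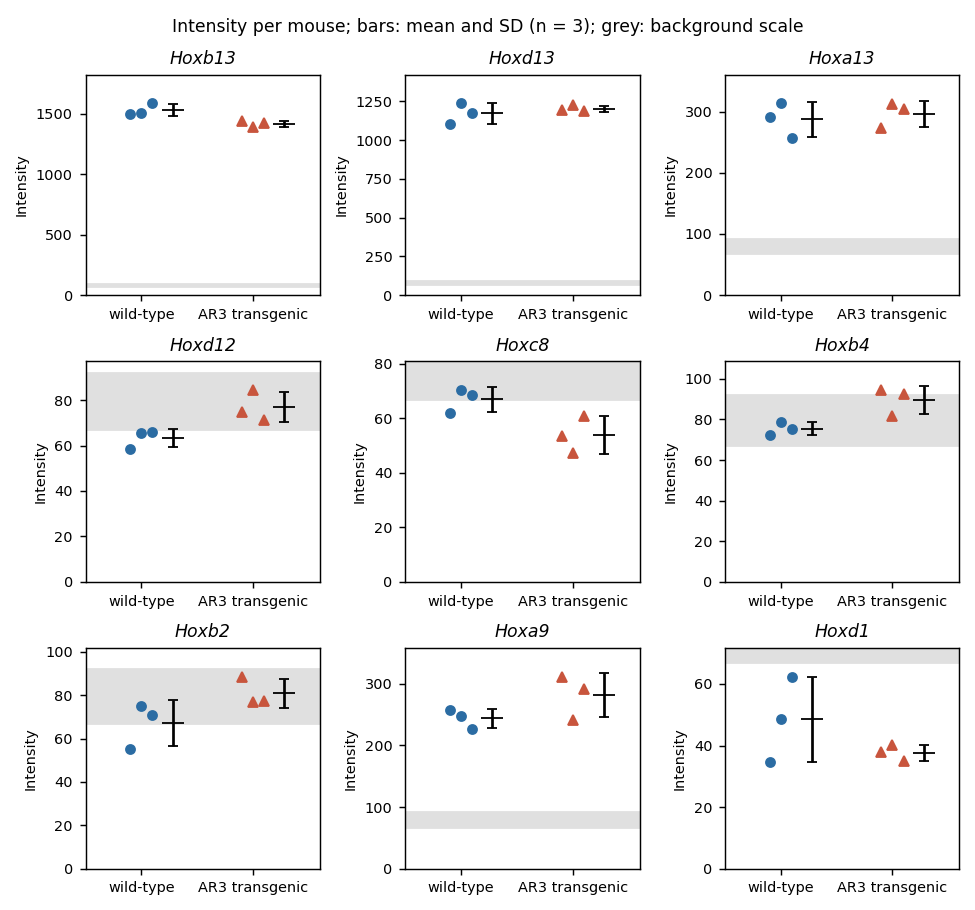
Intensity in each mouse (linear axis from 0) for Hoxb13, Hoxd13, Hoxa13 and the 6 Hox genes with the smallest p-values. Circles are wild-type, triangles AR3 transgenic, bars the mean and SD (n = 3), and the grey band the background scale from 66.9 to 91.9. Hoxb13 lies far above the band, Hoxd12, Hoxc8, Hoxb2 and Hoxd1 lie in it or under it, and Hoxb4 lies in it or just above, at 94.4 and 92.6 in transgenic mice 1 and 3.

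The remaining members were low-numbered or middle genes. Hoxa4 (204.3 to 285.5 over the 6 mice), Hoxb3 (148.7 to 190.5), Hoxa5 (147.8 to 224.2), Hoxb6 (335.3 to 420.4), Hoxb7 (142.9 to 161.6) and Hoxd8 (150.4 to 200.6) were above background on all arrays. So were Hoxd4, Hoxb5, Hoxa6 and Hoxa7, whose values lay between 91.0 and 142.7. Hoxa2, Hoxb1, Hoxd3 and Hoxc4 lay above it on 3 to 5 arrays, and Hoxa3, Hoxc5 and Hoxc6 on 0. In each of these genes the genotypes overlapped. Their changes lay between −0.14 for Hoxb1 and 0.17 for Hoxc6.

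Over the family, 22 changes were positive and 15 negative. They ran from −0.25 to 0.23, with a median of 0.03 against 0.01 over all genes. The family's median turned negative after median centring (−0.012), with array weights (−0.024) and without wild-type mouse 1 (−0.064), and was 0.00024 after quantile normalization. Without transgenic mouse 1 it was −3.3e-05. Cluster medians were −0.03 for A, 0.02 for B, 0.04 for C and 0.04 for D. By paralog number, 8 of 11 genes of groups 1 to 4 had a negative change and 12 of 16 of groups 9 to 13 a positive one, with medians of −0.07 and 0.04. The pattern at the low-numbered end rested on wild-type mouse 3, without which 4 of 11 were negative and the median of groups 1 to 4 was 0.04. Without wild-type mouse 2, 6 of 11 were negative, with a median of −0.018. The median of groups 9 to 13 lay between 0.0048 and 0.068 in all settings, the lowest after median centring. The difference between the ends of the clusters was not tested. The median absolute change of the Hox genes was 0.08, against 0.09 over all genes.

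A p above the threshold does not show equal levels, so the intervals were read. All 37 intervals at 95% lay within a change of 1 in either direction, a 2-fold difference in intensity + 16, and 35 lay within 0.5. The exceptions were Hoxd1, down to −0.60, and Hoxb1, down to −0.53. Of all genes 98.5% lay within 1 and 83.0% within 0.5. For the 21 genes above background on all arrays, the bounds ran from −0.39 to 0.43. The added constant of 16 narrows the changes of dim genes. With a constant of 1 all 37 intervals still lay within 1, and 27 within 0.5, while all 21 of the genes above background lay within 0.5. With 1 array left out, all 37 stayed within 1, but 18 to 21 of those 21 lay within 0.5. The fewest were without transgenic mouse 2, where the bounds of the 21 ran from −0.51 to 0.53. For the 9 genes at background on every array the interval describes the probe set's signal, which may hold little of the gene's own RNA.

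**Figure D3:**
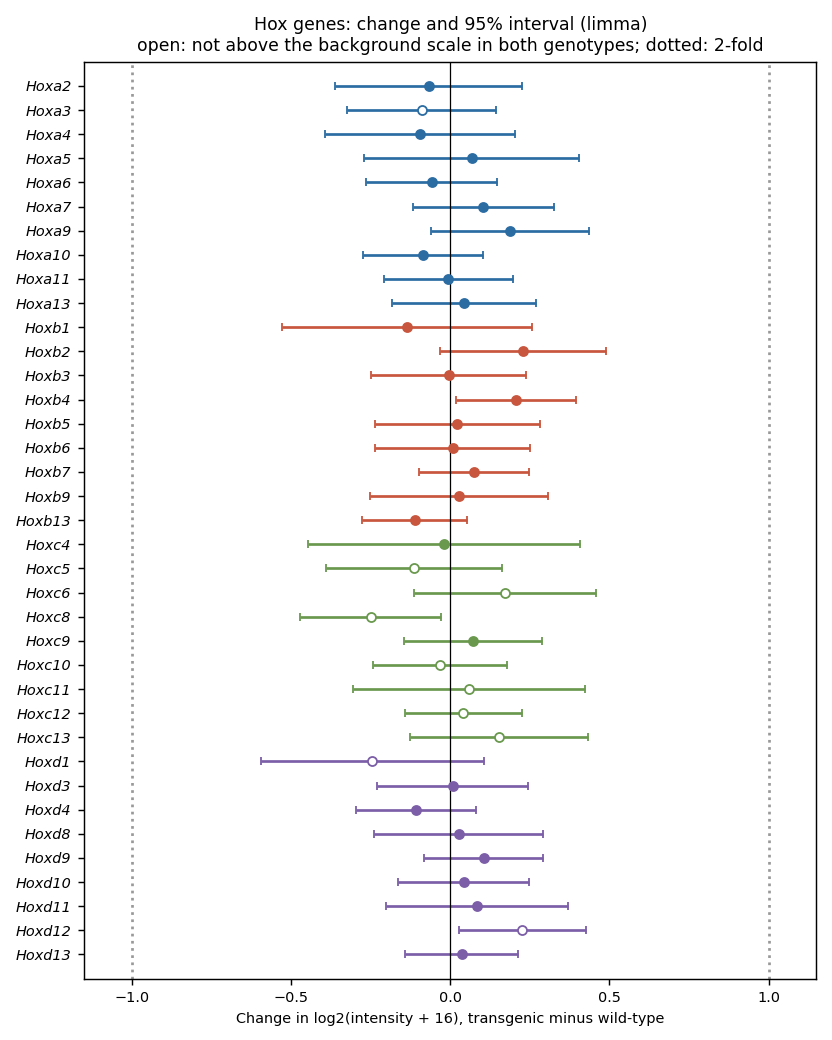
Change in log2(intensity + 16), transgenic minus wild-type, with its 95% interval from limma, for all 37 Hox genes grouped by cluster. Dotted lines mark a change of 1 in either direction. Open points are genes not above the background scale in both genotypes. All intervals lie inside the dotted lines.

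The spread between mice was not the same on all arrays. Of the 37 Hox genes, 20 (54.1%) had their lowest value of the 6 in wild-type mouse 1, against 32.3% of all genes and 29.0% of the olfactory receptor probe sets. That array also had the lowest background percentile, 66.9, and the lowest median intensity, 94.5. Hoxa5, at 147.8 in wild-type mouse 1 and between 184.3 and 224.2 in the other 5, and Hoxb5, at 91.0 and between 109.6 and 123.2, are examples. Without wild-type mouse 1 the median Hox change was −0.06 in place of 0.03, and 0 members passed the threshold (limma, smallest adjusted p 0.109).

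Hox proteins bind DNA together with cofactors of the Pbx, Meis and Pknox families. Of 8 cofactor genes measured, 7 were above background on every array and Pbx4 on 5, and 0 of 8 passed the threshold (limma). Pbx2 had the smallest p, with 263.9, 282.7 and 243.4 in wild-type and 301.0, 298.4 and 313.8 in transgenic mice. The transgenic mice were all higher, with a change of 0.20 ± 0.08 (SE, adjusted p 0.38 by limma). Pknox2 was lower in all 3 transgenic mice, with a change of −0.22 ± 0.10 (SE, adjusted p 0.42 by limma). Meis1, a partner of Hoxb13 in prostate cells, was at 487.2, 516.7 and 465.1 and at 463.8, 512.0 and 548.6, with overlapping genotypes. The median change of the 8 cofactors was 0.15.

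Polycomb proteins keep Hox genes silent and the trithorax group, with the MLL methyltransferases, keeps them active. Of 25 polycomb genes measured 0 passed the threshold (limma, 1 unadjusted). Of 14 genes of the trithorax and MLL list, which also held Ctcf, Dot1l and Psip1, 0 did (limma, 0 unadjusted). Over all probe sets 12.3% had an unadjusted p under 0.05. The polycomb gene with the smallest p was Pcgf1, at 201.5, 190.6 and 206.1 in wild-type and 158.1, 153.8 and 156.0 in transgenic mice. The genotypes did not overlap. The change was −0.32 ± 0.07 (SE), with an adjusted p of 0.095 (limma). It passed with array weights (0.043) and without the dimmest probe sets (0.038). Phf19, a polycomb accessory protein, followed with a change of 0.17 and an adjusted p of 0.49 (limma), and the trithorax genes with the smallest p were Kmt2c (−0.19) and Ash2l (0.16).

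Retinoic acid, Wnt and Fgf signals and the Cdx factors act upstream of Hox genes in the embryo. Of 15 genes of this upstream control measured, the enzymes that break down retinoic acid among them, 1 was higher and 0 lower, against 1.05% and 0.415% of all probe sets. Aldh1a2, which makes retinoic acid, was at 80.0, 84.9 and 91.3 in wild-type and 138.9, 156.5 and 174.0 in transgenic mice. All transgenic mice were higher. The wild-type values lay near the background percentiles of the same arrays, 66.9, 77.4 and 91.9, with wild-type mouse 3 just under its own. The change was 0.76 ± 0.10 (SE), with an adjusted p of 0.0083 (limma), which became 0.053 without wild-type mouse 2 and 0.057 without transgenic mouse 2. The 11 fibroblast genes had a median change of 0.47, with 0 past the threshold (limma). At an unadjusted p under 0.05 were 4 of the 11, against 12.3% of all probe sets (limma). The part of the fibroblast genes in the Aldh1a2 value was not tested. The retinoic acid receptors Rara, Rarb and Rarg had changes of −0.07, −0.05 and 0.01, and did not pass the threshold. Of the enzymes that break down retinoic acid, Cyp26a1 was under background on all arrays. Cyp26b1 and Cyp26c1 were above it on all 6 arrays, with changes of −0.03 and 0.08 that did not pass the threshold. Hoxa4 and Hoxb4, at the end of the clusters known to respond to retinoic acid, had changes of −0.09 and 0.21 that did not pass the threshold. Of all 11 genes of groups 1 to 4 at that end, 8 had a negative and 3 a positive change. This split rested on wild-type mouse 3.

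The clusters also hold microRNA genes. The array measures the transcribed gene and not the mature arm. The mature 5′ arms of the miR-10 and miR-196 genes measured form a pair of seed families, shown here from RefSeq on build GRCm38.p6 with the seed, bases 2 to 8, in capitals, because members of each family lie in different clusters and share a seed. They lie at chr11:96317186-96317208 (miR-10a, plus strand), chr2:74726074-74726096 (miR-10b, plus strand), chr11:96265187-96265208 (miR-196a from Mir196a-1, plus strand) and chr6:52230129-52230150 (miR-196b, minus strand).
miR-10a-5p: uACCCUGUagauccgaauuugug
miR-10b-5p: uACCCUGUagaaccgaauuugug
miR-196a-5p: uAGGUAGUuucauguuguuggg
miR-196b-5p: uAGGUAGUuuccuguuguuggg
The miR-10 genes lie beside group 4 and the miR-196 genes beside group 9, and Hox messages are known targets of both families. Of 9 non-coding genes of the clusters measured, 0 passed the threshold (limma, 1 unadjusted, against 12.3% of all probe sets). Above background on all arrays were 3 of the 9, Mir196a-1, Mir196b and Mir615. Mir196a-2, whose identical miR-196a arm lies at chr15:102973365-102973386 on the plus strand, was under background on every array. Its values ran from 20.5 to 39.5, with a change of 0.08. Mir615, in cluster C and in neither seed family, was at 157.0, 231.6 and 243.2 in wild-type and 208.6, 223.2 and 200.1 in transgenic mice, a change of 0.02. Mir196a-1 and Mir196b were at 224.2 ± 20.1 and 127.7 ± 11.9 (SD, n = 3) in wild-type and 214.4 ± 17.9 and 121.4 ± 5.85 (SD, n = 3) in transgenic mice, with overlapping genotypes. Mir10a was at 25.4, 28.8 and 27.7 in wild-type and 15.1, 17.8 and 18.1 in transgenic mice, all under background. All 3 transgenic mice were lower, with a change of −0.39 ± 0.08 (SE, adjusted p 0.069 by limma). It passed with an added constant of 1 (0.041), after median centring (0.045) and with array weights (0.013). Mir10b, with the same seed, was under background too, with a change of −0.09 and an adjusted p of 0.77 (limma). The long non-coding genes Hottip, beside Hoxa13, and Haglr, beside Hoxd1, were under background, with changes of 0.02 and −0.02.

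Of 22 genes that flank the clusters, 1 was lower and 0 higher, against 0.415% and 1.05% of all probe sets. Copz2, a coat protein of Golgi vesicles that lies 4 protein-coding genes beyond Hoxb1 in the RefSeq order, was at 2288, 2734 and 2677 in wild-type and 1732, 1841 and 1634 in transgenic mice. The change was −0.56 ± 0.10 (SE), with an adjusted p of 0.036 (limma). The call was lost under a replicate block by mouse (0.113), with a constant of 1 (0.072), and without any 1 array other than wild-type mouse 1, at up to 0.198. Evx1 and Evx2, homeobox genes next to Hoxa13 and Hoxd13, had changes of −0.07 and 0.13 and did not pass the threshold.

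In mice without Hoxb13 the ventral prostate is known to lack a pair of secretory products, those of Spink1 and Sbp. Both genes were lower here. Hoxb13 was also lower in all 3 transgenic mice, with a change of −0.11, but did not pass the test (adjusted p 0.58 by limma). A link between these changes was not tested. Sbp was at 7097, 7746 and 8414 in wild-type and 4138, 4229.9 and 3952 in transgenic mice, a change of −0.91 ± 0.09 (SE, adjusted p 0.0017 by limma). Spink1 was at 7190.0, 7590.1 and 8247 and at 5466, 5183 and 5215, a change of −0.53 ± 0.08 (SE, adjusted p 0.020 by limma). Spink1 lost its call with the replicate block (0.114) and without wild-type mouse 2 (0.095) or transgenic mouse 1, 2 or 3 (0.074, 0.119 and 0.122). Other secretory genes of the prostate were lower in all 3 transgenic mice without passing the threshold, Msmb with a change of −0.52 (adjusted p 0.18 by limma) and Pbsn with −0.21 (0.31), while Tgm4 had a change of 0.07. The part of the gland's secretory content in these values was not tested. Of 15 other genes of prostate development measured, 0 passed the threshold (limma, 2 unadjusted, against 12.3% of all probe sets). Notch1 and Gata3 had the smallest p, with changes of 0.26 ± 0.08 and 0.24 ± 0.10 (SE) and adjusted p-values of 0.25 and 0.39 (limma). Foxa1, a luminal pioneer factor, was at 2124 ± 235 and 2178 ± 147 (SD, n = 3), a change of 0.04.

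**Figure D4:**
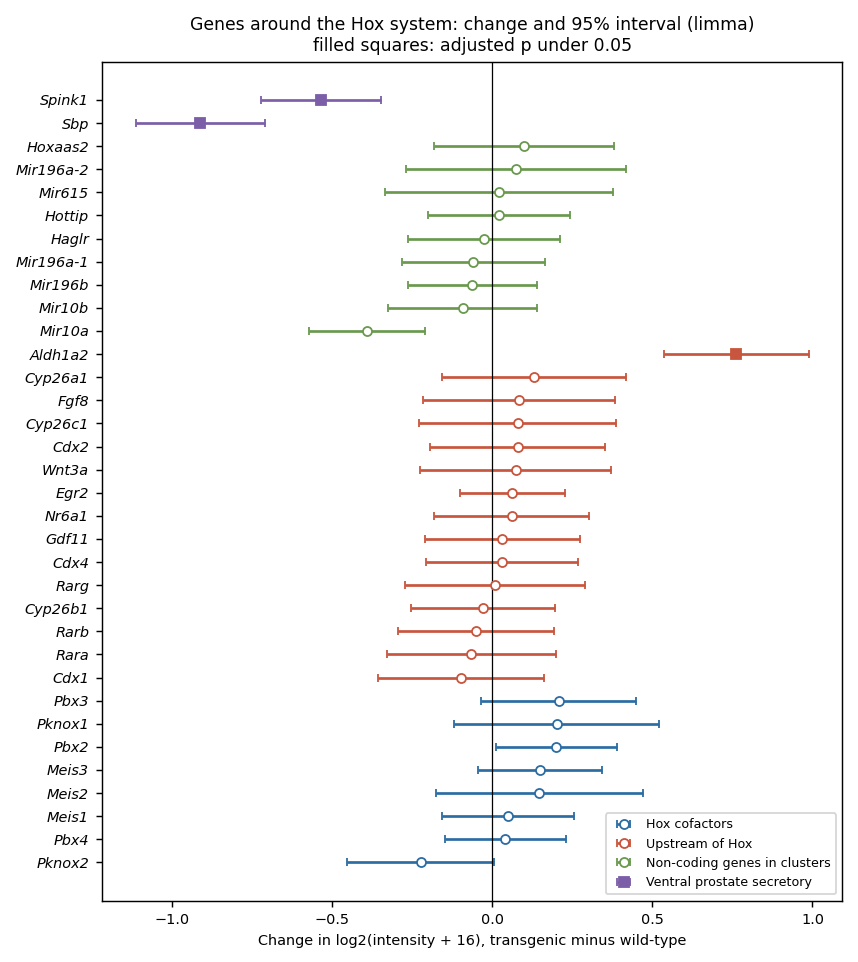
Change in log2(intensity + 16), transgenic minus wild-type, with its 95% interval from limma, for Hox cofactors, genes upstream of Hox genes, non-coding genes of the clusters and the ventral prostate genes Spink1 and Sbp. Filled squares have an adjusted p under 0.05: Aldh1a2 (0.76), Spink1 (−0.53) and Sbp (−0.91).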

How the data were processed

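Total RNA of dissected prostates was labelled with a whole-transcript kit for Affymetrix arrays, per the labels' protocols. The deposited table holds 1 value per probe set and array, an intensity that the values show to be linear. How the authors summarised and normalized them is not given in the sources used here. The values were used as deposited, with no further normalization. Of 35512 probe sets, 6568 with identifiers lower than those of genes were taken for controls and left out. Gene symbols are those of GEO's platform annotation. Where a gene had several probe sets, the one with the highest mean over 6 arrays was used.

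The test was limma 3.58.1 (lmFit and eBayes, R 4.3.3) on log2(intensity + 16), 3 transgenic against 3 wild-type arrays, two-sided, with no covariate and Benjamini-Hochberg adjustment over all 28944 probe sets. Every adjusted p is from limma. The script was tested on simulated data. The number of arrays limits the precision. No array batch was given. The rule for the members uses names alone, but the family and the lists were chosen as subjects with earlier results of these data known. Named were all Hox genes, and from each list of Hox partners, regulators, neighbours, non-coding genes and prostate development the genes past the threshold or else those with the smallest p. Genes beyond these, such as Meis1, Mir196a-1, Mir615, Evx1, Rara and Hottip and those of the marker lists, were named after their values were seen. The labels number the mice of each genotype from 1 to 3. The deviations of same-numbered mice correlated at −0.04, 0.05 and −0.16 over probe sets, so the numbers were not taken to pair the mice. Alternatives were another constant (1 or 64), array weights, a variance trend with robust fitting, median centring or quantile normalization of the arrays, dropping the dimmest 40% of probe sets, a block by mouse number, the mean of a gene's probe sets, and each array left out.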

Additional observations from a re-analysis of the deposited data

How the results depend on the processing

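In all 15 alternative settings 0 Hox genes passed the threshold (limma), and the smallest adjusted p over all of them was 0.108, for Hoxc8 with array weights. The count was 0 in each fit that left out 1 array. The median Hox change ran from −0.064 to 0.059 in those fits. The count of Hox genes above the background scale in both genotypes was 27, was 17 with the 99th percentile of the olfactory receptor probe sets, and ran from 24 to 27 when 1 array was left out. Under a replicate block by mouse, the count of called Hox genes stayed at 0 and 250 in place of 425 probe sets were called over the whole array. That count was 678 with a variance trend, 1202 with array weights, and 234 to 519 when 1 array was left out. Without the dimmest probe sets 26 of the 37 Hox genes were tested. Each Hox gene has 1 probe set, so averaging probe sets left their values as they were. Of 37 genes, 17 kept 1 sign in every setting in which they were tested, Hoxb13 among them. The other 20, all with a change of at most 0.09 in size, turned sign in at least 1. The changes that turned with array weights were Hoxa2 0.044, Hoxd3 −0.072, Hoxa5 −0.013, Hoxb5 −0.077, Hoxb6 −0.066, Hoxd8 −0.076, Hoxb9 −0.039, Hoxc10 0.028, Hoxd11 −0.024, Hoxa13 −0.027 and Hoxd13 −0.016. The changes that turned with quantile normalization were Hoxd3 −0.024, Hoxb5 −0.020 and Hoxb6 −0.011. The changes that turned with median centring were Hoxd3 −0.031, Hoxb5 −0.016, Hoxb6 −0.031, Hoxd8 −0.012, Hoxb9 −0.011 and Hoxd13 −0.0021. Over the fits that left out 1 array, those that turned ran as follows: Hoxa2 −0.15 to 0.067, Hoxb3 −0.11 to 0.053, Hoxd3 −0.081 to 0.059, Hoxa4 −0.21 to 0.019, Hoxc4 −0.21 to 0.11, Hoxa5 −0.097 to 0.18, Hoxb5 −0.097 to 0.092, Hoxa6 −0.11 to 0.010, Hoxb6 −0.083 to 0.061, Hoxd8 −0.084 to 0.11, Hoxb9 −0.092 to 0.096, Hoxc9 −0.010 to 0.13, Hoxc10 −0.086 to 0.024, Hoxd10 −0.036 to 0.087, Hoxa11 −0.068 to 0.054, Hoxc11 −0.078 to 0.19, Hoxd11 −0.032 to 0.17, Hoxc12 −0.013 to 0.085, Hoxa13 −0.031 to 0.11 and Hoxd13 −0.0071 to 0.075. The cause of these turns was not tested.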

Other observations

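A probe set that the annotation gives to both Hoxb8 and Hoxb7 was left out of the family because it has several symbols. Its intensities were 116.9, 206.6 and 178.9 in wild-type and 150.7, 187.3 and 189.7 in transgenic mice, with overlapping genotypes and a change of 0.09 ± 0.19 (SE, adjusted p 0.90 by limma). The lowest value was again in wild-type mouse 1. The antisense gene Hoxd3os1 had 2 probe sets, with changes of −0.14 and 0.02, and all values of both lay between 36.4 and 69.6. The other marker lists held 0 to 2 called genes each. Over all probe sets 1.05% were higher, 0.415% lower and 12.3% at an unadjusted p under 0.05. Of 6 endothelial genes 1 was higher (Cdh5), of 7 myeloid genes 1 (Ctss), of 8 seminal vesicle genes 1 was higher (Ceacam10) and 1 lower (Svs3a), and of 7 vas deferens and epididymis genes 2 were higher (Adam7 and Wfdc8). Of 8 basal, 8 smooth muscle, 10 skeletal muscle, 6 urothelial and 4 nerve and glia genes 0 were called (limma, with 1, 0, 3, 1 and 0 at an unadjusted p under 0.05).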
